A study of Homo sapiens and Mus musculus with 4 samples.

Results

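The data described here are the ATF4 ChIP-seq peaks of mouse bone marrow cells on chromosomes 1 to 19. Chromatin of bone marrow cells from C57BL/6 mice was precipitated with an anti-ATF4 antibody, and the peaks come from comparing that 1 library with 1 input library, which had no antibody. The list holds 83088 peaks, of which 81297 lie on the 19 numbered chromosomes and are described here. All peaks on those chromosomes were taken, with no selection on width or place in the list. The other library pair of the series, from the human acute myeloid leukaemia cell line KG1a, gave 873 peaks and serves only for comparison. The labels give neither the age, sex or number of the mice nor any treatment or allele, and they name the cells only as bone marrow cells, with no sorted subset.

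ATF4 is a transcription factor of the basic leucine zipper (bZIP) family. Its protein is made in larger amounts when the kinases of the integrated stress response phosphorylate eIF2, as happens on amino acid shortage, haem shortage, unfolded proteins or viral RNA. It binds DNA as a dimer, often with a C/EBP partner, and is known for activating genes of amino acid synthesis, amino acid uptake and tRNA charging. In blood formation it is known for its part in fetal liver haematopoiesis and in the response of red cell precursors to haem shortage, and the series' title links its loss to an ageing-like decline of adult stem cells. A peak is a stretch of genome where the ChIP library held more reads than the peak caller's threshold allowed.

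Each entry of the list is a chromosome with 2 positions (GRCm38), and nothing else. A mouse gene annotation and genome sequence were not used here. Peaks were therefore described by position, width and spacing, and no peak was assigned to a gene, promoter, intron or intergenic stretch, and no sequence is shown. Whether genes of blood lineages, of the stress response or of metabolism carry peaks, and whether marrow markers do, was not analysed here. Read depth is unknown, there are no replicate libraries, and no test was made. Intervals on shares are Wilson 95% intervals, which cover counting error only and treat neighbouring peaks as independent, which they are not.

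The marrow peaks ranged from short to very broad. Those of 2 kb or more, mostly 2 to 5 kb wide, held a larger share of the peak bases than of the list. Together the 81297 peaks covered 74.6 Mb, or 3.11% of the 2398 Mb between the first and the last peak of each chromosome. The narrowest was 265 bp, 10% were 297 bp or less, the median was 545 bp, 10% were 1918 bp or more, and the widest was 17247 bp. Peaks under 500 bp made up 45.2% of the list (36728 peaks, 44.8 to 45.5%) but only 17.7% of its bases. Peaks from 2 to 5 kb were 8.04% of the list (6534 peaks, 7.85 to 8.23%) and 26.1% of the bases, the largest part of any width class used here. Peaks from 500 bp to 1 kb held 23.1% of the bases and those from 1 to 2 kb 22.4%. The classes differ in width, so this ranking depends on their edges. The 1042 peaks from 5 to 10 kb were 1.28% of the list and 9.07% of the bases. The 98 peaks of 10 kb or more were 0.121% of the list and 1.56% of the bases. The widest 10% of peaks held 37.9% of all peak bases.

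**Figure D1:**
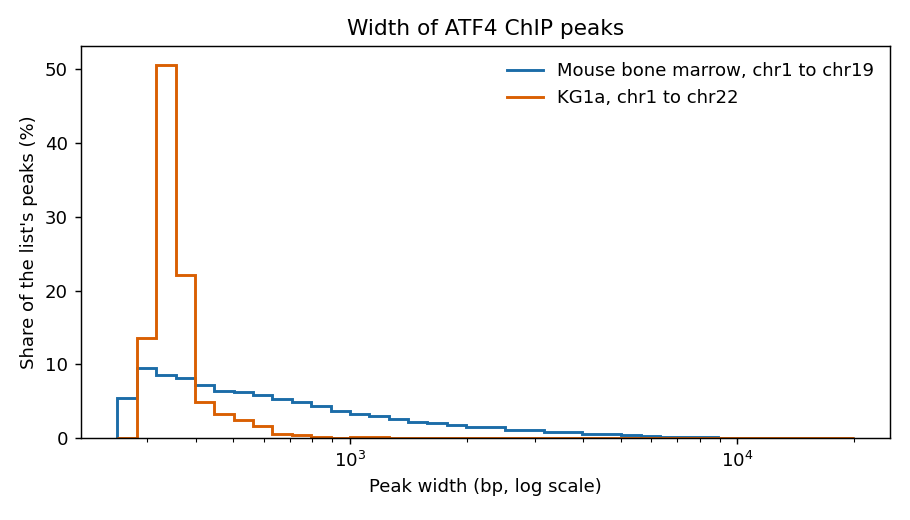
Share of each list's peaks (vertical axis, %) by peak width (horizontal axis, bp, log scale) for the 81297 mouse bone marrow peaks on chromosomes 1 to 19 and the 860 KG1a peaks on chromosomes 1 to 22. KG1a widths sit in a narrow band around a median of 341 bp, while mouse widths fall off slowly from 265 bp to beyond 10 kb.

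KG1a peaks lay in a narrow band of widths by comparison. Of the 860 KG1a peaks on chromosomes 1 to 22, 94.1% were under 500 bp, 2 were 1 to 2 kb wide and 0 were 2 kb or wider (0 to 0.445%). The narrowest KG1a peak was 310 bp, against 265 bp in the marrow list. In KG1a 25% of peaks were 323 bp or less and the median was 341 bp, so many widths lay close to that list's smallest. The widest 10% of KG1a peaks held 15.1% of the bases. The lists differ in species, cell source and library, and may differ in read depth and peak-calling settings, which are not known. With 1 ChIP library each, this difference in width has no replicate check, and these sources of it cannot be told apart.

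On a log scale, gaps between neighbouring marrow peaks fell into a short and a long class. The 81278 gaps were measured from the end of one peak to the start of the next. In bins of equal width on a log scale, the fullest were 316 to 398 bp (4828 gaps) and, separately, 31.6 to 39.8 kb (3768 gaps). Between these the number fell to 1538 gaps in the bin from 3.98 to 5.01 kb. Such bins widen with gap length. Per base of gap length, the bin from 31.6 to 39.8 kb held fewer gaps than that from 3.98 to 5.01 kb. The long class thus stands out on the log scale only. The shortest gap was 268 bp, close to the narrowest peak width. The bin from 251 to 316 bp, with 3769 gaps, was thus open to gaps over only a part of its width. Where the short class is most frequent therefore depends on the bins. Gaps up to 1 kb made up 28.1% and gaps up to 3 kb 42.5% (34550 gaps, 42.2 to 42.8%), while 7.21% were longer than 100 kb. The share up to 3 kb depends on how many peaks are kept: it was 19.3% among the widest 25% of peaks and 16.6% in the first 25% of the deposited order. In KG1a 3 of 838 gaps were up to 3 kb, or 0.358% (0.122 to 1.05%). The KG1a list has far fewer peaks, and this share was not compared at matched peak numbers.

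**Figure D2:**
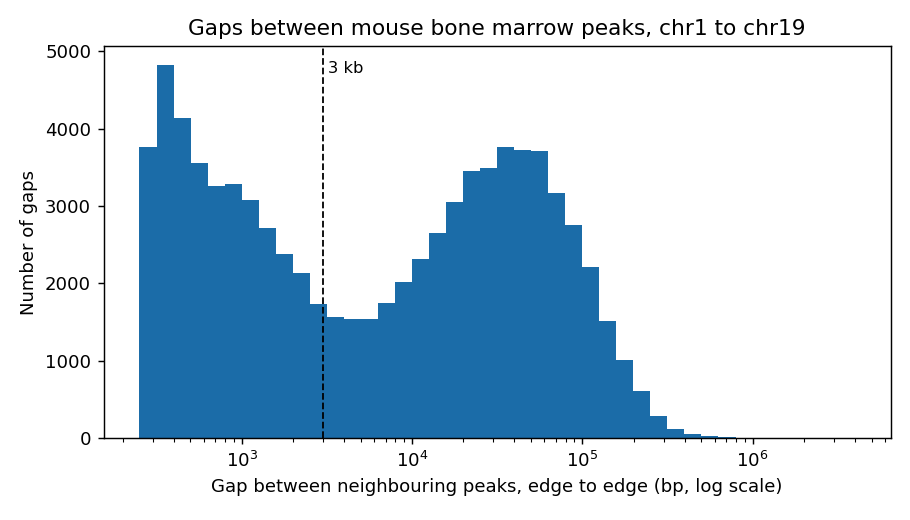
Number of gaps (vertical axis) by gap length from peak edge to peak edge (horizontal axis, bp, log scale) for mouse bone marrow peaks on chromosomes 1 to 19. On this scale, gaps form a short class with its fullest bin at 316 to 398 bp and a long class with its fullest bin at 31.6 to 39.8 kb. The bins widen with gap length. No gap is shorter than 268 bp, which cuts the first bin short. The dashed line at 3 kb marks the distance used to join peaks into regions.

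Joining peaks up to 3 kb apart turned the list into 46747 regions. Of these, 27936 (59.8%) held 1 peak and 18811 held 2 or more. The regions of 2 or more peaks held 65.6% of all peaks and 69.1% of all peak bases, spanned a median of 3578 bp and were covered by peaks over a median of 61.4% of their span. Regions of 5 or more peaks numbered 1775, and 28 held 10 or more. Peaks in company were somewhat wider than peaks alone, with a median of 483 bp for lone peaks, 559 bp in regions of 2, 589 bp in regions of 3 or 4 and 629.5 bp in regions of 5 or more. The middle 50% of widths overlapped widely, at 339 to 838 bp for lone peaks and 397 to 1137 bp in regions of 5 or more.

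The 15 regions with the most peak bases each held 4 to 10 peaks, the widest of them 7359 to 13502 bp, and were covered over 62.5% of their span or more. The first was chr4:116470387-116501951, where 8 peaks cover 25275 of 31565 bases, or 80.1%, and the widest of them is 13502 bp. Next came chr9:120451763-120479223 with 23386 bases in 7 peaks, chr5:121027866-121056428 with 22937 bases in 7 peaks, and chr11:55145575-55170369 with 22650 bases in 7 peaks. The fifth, chr19:60582944-60610844, held 21261 bases in 8 peaks. Among the 15 regions with the most bases, coverage was densest at chr5:88338473-88360268, with 20709 of 21796 bases in 4 peaks, and at chr11:117558757-117579975, with 20160 of 21219 bases, also in 4 peaks. Of those 15, 4 lay on chromosome 8, at chr8:123779113-123801622, chr8:118394939-118417830, chr8:24349273-24374665 and chr8:108639909-108666533, with 18370 to 19236 bases each. Chromosome 8 held 4638 of the 81297 peaks, and 7 of the 100 regions with the most peak bases. These regions were picked for their peak bases, so their size is a description.

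A region could also be long through many peaks of moderate width. The region with the most peaks, chr5:111975313-112010214, held 20 peaks in 34902 bp, the widest only 3018 bp, and 52.0% of it was covered. At chr15:65408873-65428599 there were 14 peaks in 19727 bp, the widest 3150 bp. The opposite form, a broad peak with no neighbour within 3 kb, was widest at chr5:117020303-117037549 (17247 bp), followed by chr2:107823040-107838590 (15551 bp) and chr2:83587269-83601543 (14275 bp). Of the 100 regions with the most peak bases, 14 lay on chromosome 5 and 13 on chromosome 11, against 1 on chromosome 12 and none on chromosome 13. Of all 81297 peaks, chromosomes 5, 11, 12 and 13 held 6066, 5274, 3798 and 3546. The counts among the 100 regions were not tested against these numbers.

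Chromosomes with more peaks per Mb tended to have wider peaks. Density ranged from 26.2 peaks per Mb on chromosome 3 to 44.4 on chromosome 11, a ratio of 1.69, measured over the span from first to last peak. Covered bases ranged more, from 2.22% on chromosome 3 to 4.39% on chromosome 11, a ratio of 1.97. After chromosome 11 came chromosome 5 with 40.8 peaks per Mb and 4.10% covered, and chromosome 9 with 40.6 per Mb and 3.83%. At the lower end stood chromosome 14 with 28.3 per Mb and 2.46%, and chromosome 16 with 28.5 per Mb and 2.51%. Median width ran from 521 bp on chromosome 3 to 580 bp on chromosome 5. Over the 19 chromosomes density and median width had a Pearson correlation of 0.81 and a Spearman correlation of 0.78, given as a description, since all chromosomes share 1 library pair and its depth, and base composition was not analysed. Gaps up to 3 kb made up 38.5% on chromosome 3 and 46.0% on chromosome 11. For comparison, chromosome X had 9.53 peaks per Mb, 0.741% covered and a median width of 481 bp. Chromosome Y had 119 peaks, or 1.34 per Mb. The sex of the mice is not given. Whether the cells carried a Y chromosome, and how many X copies they had, was not tested.

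**Figure D3:**
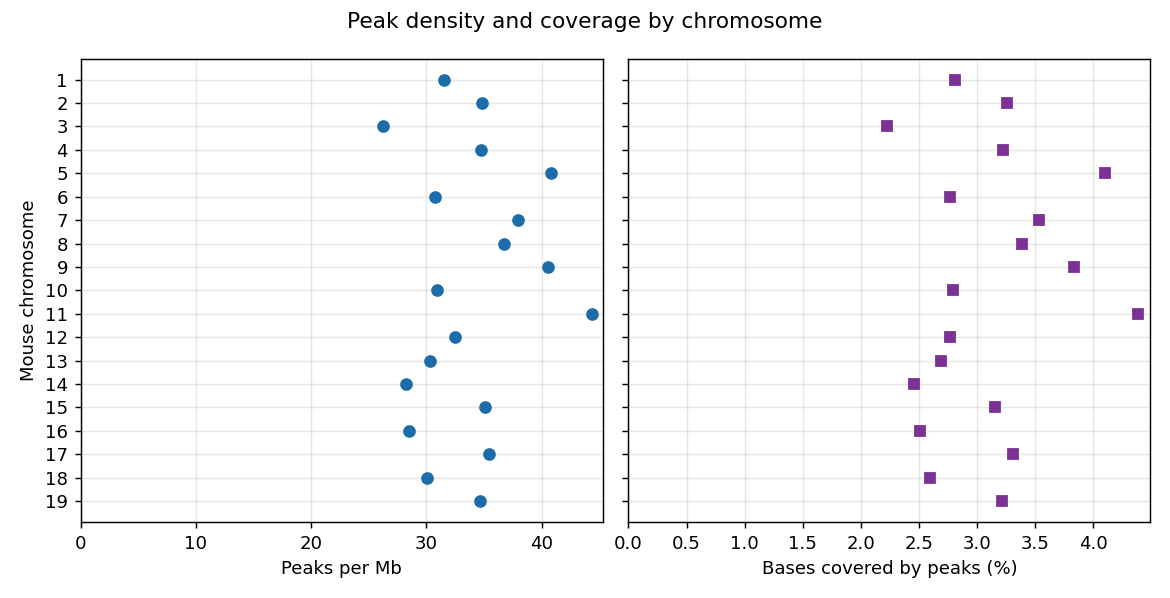
Peaks per Mb (left) and share of bases covered by peaks in % (right) for each of mouse chromosomes 1 to 19 (vertical axis), over the span from first to last peak, with 1 point per chromosome and no error since there is 1 ChIP library. Chromosomes 11, 5 and 9 stand highest in both panels and chromosome 3 lowest.

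Taken over all 19 chromosomes, peaks were denser towards the far end. Mouse numbered chromosomes have their centromere at the low-coordinate end, and the first peak lay between positions 3002577 and 4179180 on all 19. The assembly sequence before the first peak was not examined, so the lack of peaks there is not read as a result. With each chromosome's span cut into 10 equal parts, density rose from 28.0 peaks per Mb in the part nearest the centromere to 32.1 in part 5 and 42.8 in part 10, a ratio of 1.53 between parts 10 and 1. Covered bases rose from 2.35 to 4.35%, a ratio of 1.85, and the median width from 526 to 577 bp. On 16 of 19 chromosomes part 10 was denser than part 1. The rise was steepest on chromosome 5, from 22.1 to 66.0 peaks per Mb, and on chromosome 15, from 22.9 to 52.3. Chromosome 16 went the other way, from 41.5 to 33.7, and on chromosomes 17 and 19 part 10 was slightly the lower, at 30.3 and 28.9 on 17 and 42.3 and 41.6 on 19. On chromosomes 12, 13 and 3, which count among the 16, the ends were also nearly equal, with ratios of 1.05, 1.07 and 1.08. Gene density, base composition and how well reads can be placed along the chromosomes were not analysed.

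**Figure D4:**
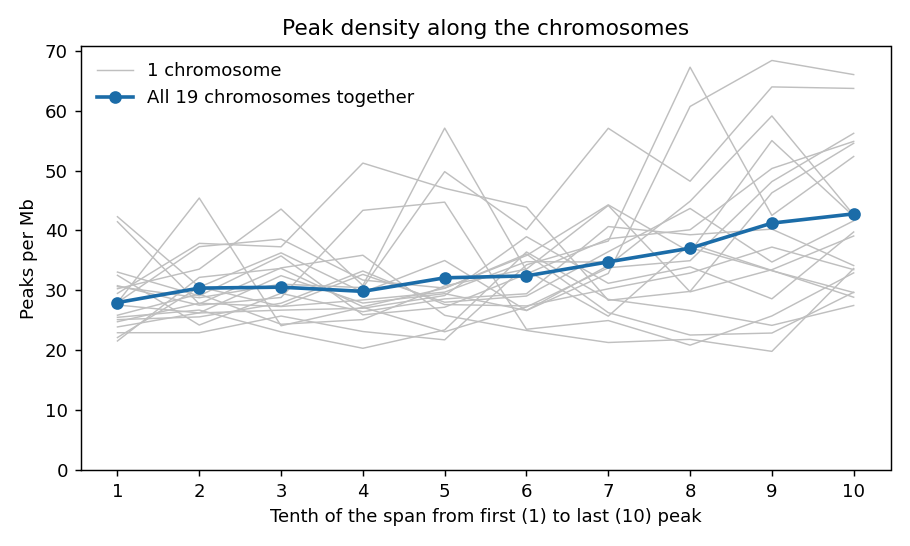
Peaks per Mb (vertical axis) in 10 equal parts of each chromosome's span from first to last peak (horizontal axis, 1 nearest the centromere), with a grey line for each of the 19 chromosomes and a blue line for all together. The blue line rises from 28.0 to 42.8 peaks per Mb, while single chromosomes scatter widely around it.

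Peak number varied widely between megabase windows, and denser windows held somewhat more broad peaks. The 2410 windows of 1 Mb held a median of 31 peaks, with 17 or fewer in 10% of windows and 54 or more in another 10%. The variance of the window counts was 7.56 times their mean. Counts of windows 1 Mb apart had a Pearson correlation of 0.54, falling to 0.30 at 5 Mb and 0.20 at 20 Mb (2391, 2315 and 2030 window pairs, which are not independent). The densest 10% of windows, 241 in all, held 20.3% of the peaks. These windows were picked for their count, so a share above 10% follows from the choice. The share that random placement would give was not computed. With windows ranked by count into 5 equal classes of 482, the share of peaks 2 kb or wider rose from 6.60% in the sparsest class to 11.7% in the densest, and the share of gaps up to 3 kb from 30.8 to 49.1%. The typical width moved less: the median of the window medians was 501.5 bp in the sparsest class and 581 bp in the densest, and over windows count and median width had a Spearman correlation of 0.23. A denser window holds shorter gaps by its count alone, so the rise of the short gaps is no separate observation.

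The window with the most peak bases was chr5:119000001-120000000, where 111 peaks covered 17.9% of the bases. The window with the most peaks, chr5:137000001-138000000, followed with 129 peaks and 17.6%. The window just before it, chr5:136000001-137000000, had 11.3%, and the one before that, chr5:135000001-136000000, had 13.0%. These compare with a median window of 2.64%. The third, chr17:47000001-48000000, had 98 peaks and 13.1% covered. The window chr5:112000001-113000000 reached 11.7% with only 61 peaks, whose median width of 843 bp was the largest among the 12 windows with the most bases.

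Peak width changed along the deposited order of the marrow list, and its first 4000 places held mostly peaks without a near neighbour. The list is not in genome order, and it holds no score that says what it was sorted by. Its first 100 places held 97 peaks on the numbered chromosomes. Of these, 80 (82.5%) had no neighbour within 3 kb, and their median width was 864 bp. From place 2001 to 4000 the median width was 2331 bp, 18.0% were 5 kb or wider and 57.1% were alone. From place 4001 to 8000 the median width was much the same, 2306 bp, but only 37.5% were alone. From place 20001 on, 61633 peaks had a median width of 458 bp and 34.0% were alone. The list thus opened with mostly lone peaks of moderate median width and ended with narrow ones. Among these parts, median width was largest from place 2001 to 4000, where most peaks were still alone. The widest single peak, 17247 bp, stood earlier, between places 101 and 500. A cut at the first 25% of the list hardly distinguished lone from grouped peaks. That part held 25.7% of the lone peaks and 23.7% of those in regions of 2. It held 24.7% of those in regions of 3 or 4 and 27.4% of those in regions of 5 or more. This cut pools unlike parts. In 20 equal classes of the order, the share with a neighbour was 35.0% in class 1, 76.2% in class 4 and 57.5% in class 20. The median place was 45160 for lone peaks and 36435 for those in regions of 5 or more.

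The opening peaks can be seen one by one. The first was chr1:62791636-62792190, 555 bp wide with 1 neighbour in its region. The second, chr11:3561874-3562233 (360 bp), and the third, chr12:108264026-108264623 (598 bp), stood alone, as did the peak in place 5, chr8:117614396-117615354 (959 bp). The tenth, chr5:121027866-121039120, was much broader, 11255 bp wide in a region of 7 peaks, and that region is the third by peak bases above. Among the first 1000 peaks on the numbered chromosomes, 544 were under 1 kb, and 85.1% of these were alone. Another 74 were 5 kb or wider, and 40.5% of these were alone. These shares are given side by side and their difference was not tested.

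**Figure D5:**
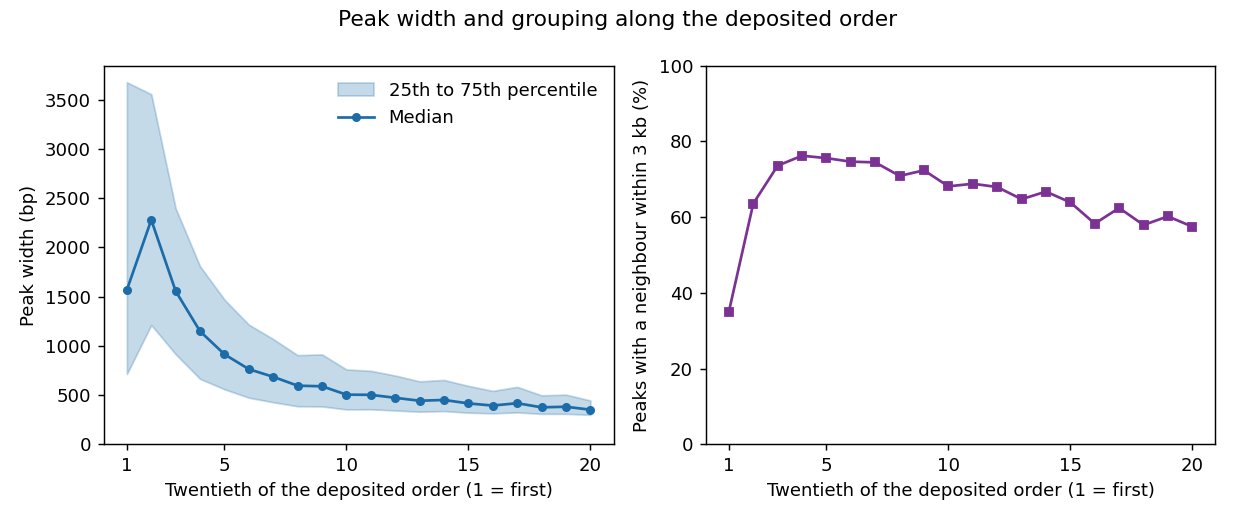
Peak width in bp (left, median as points and 25th to 75th percentile as band) and share of peaks with a neighbour within 3 kb in % (right) for the 81297 peaks in 20 equal classes of the deposited order (horizontal axis, 1 is first). Width is largest in class 2 at a median of 2280 bp and then falls to 351 bp, and the share with a neighbour is lowest in class 1, at 35.0%, and highest in class 4, at 76.2%.

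In the later list, order came in long runs. The whole list of 83088 peaks broke into 1537 stretches within which chromosome name and position rise. Of these, 1163 began in the first 25% of the list, while 14 stretches of 1000 peaks or more held 62.3% of all peaks, the earliest starting at place 10892 and the longest holding 8426 peaks. Over those 14 the median width fell from 1353 bp in the first to 340 bp in the last, with 2 small steps upward (from 441 to 445 bp and from 397 to 421 bp). All 98 peaks of 10 kb or more stood at or before place 17149, and 89.4% of the 7674 peaks of 2 kb or more stood in the first 25% of the list, against 7.25% of the peaks under 500 bp.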

How the data were processed

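The data are 2 peak lists, each from 1 ChIP library against 1 input library, per the labels. The mouse build was GRCm38 and the tools were MACS2, Bowtie2, deepTools and CASAVA 1.4, per the submitters' processing notes, whose settings, the peak threshold included, were not given in the sources used here. Both deposited lists have 3 columns (chromosome, start, end) with no score. Starts were read as counted from 0 and are printed counted from 1. Peaks were placed in windows by their centre, joined up to 3 kb, and analysed with Python 3.11.15, pandas 2.3.3, NumPy 2.4.6 and SciPy 1.17.1. The code was tested on simulated data with known regions, windows and stretches. The planned assignment to genes, promoters and introns, the gene lists and the rule for named genes need a mouse annotation, which was not used here. The measures reported in their place, and the regions named (those ranking first by peak bases, peak number, width or place in the list), were chosen after the data were seen, and the set of peaks was chosen with earlier results of these data known.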

Additional observations from a re-analysis of the deposited data

Results flagged for a closer look

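Apart from the chromosome X and Y values given above, peaks outside chromosomes 1 to 19 were not part of the description, and they are given as values only. Chromosome X held 1577 peaks and chromosome Y 119. The unplaced scaffolds held 91, and the mitochondrial genome 4. These peaks come from the same comparison with the input library as those on chromosomes 1 to 19. Their numbers were not tested against an expected number, and how well reads can be placed on these sequences was not analysed. Chromosome Y peaks had a median width of 498 bp, and 38.1% of their gaps were up to 3 kb.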

How the results depend on the processing

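The setting of the widest 25% of the peaks was planned. The measures it is applied to here, and the other settings, were chosen after seeing the data. The share of gaps up to 3 kb, 42.5% in the full list, was 19.3% among the widest 25% of peaks, 16.6% in the first 25% and 29.2% in the first 50% of the deposited order, where fewer peaks by construction leave longer gaps, and 42.3% without chromosome 5. The number of joined regions was 58455, 43310 and 37977 with joining up to 1, 5 and 10 kb, each within 1.5 times of 46747. The densest 10% of windows held 20.3% of peaks, and 21.7% with windows of 500 kb, 19.5% with 2 Mb, 20.2% with windows moved by 500 kb, 25.7% among the widest 25% of peaks, 24.3% in the first 25% and 22.4% in the first 50% of the list, and 19.9% without chromosome 5. Alternatives on promoter distance, peak overlap, choice of start sites, gene intervals and gene lists were not run, as they need gene positions. No paired analysis was possible because each group has 1 library. With depth unknown and no peak scores, the precision of a single peak cannot be given.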
